A study of Mus musculus with 6 samples.

Results

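The genes described here are antiviral effectors of the interferon response that lie outside the best-known families of that response. They were chosen by name, from a list drawn up with earlier results of these data known, as all probes of the non-normalized intensity table whose target name was one of 47 gene names. Of these 47 names, 42 were found among the 30854 target names of the array, and they held 74 of its 45281 probes. The other 5, Cmpk2, Shisa5, Parp9, Sp110 and Xaf1, had no probe under those names. Current names follow a RefSeq gene table of the mouse assembly GRCm38.p6. In it the listed MNDA is Ifi211, TRIM30 is Trim30a and LOC223672 is Apol9a.

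RNA of cancer-associated fibroblasts was read with 6 Illumina bead arrays. These are the stromal fibroblasts of a carcinoma, here grown as an explant from a pancreatic tumour of one KPC-Brca1 mouse. The 3 DAC plates received 2 micromolar decitabine (5-aza-dC, DAC) for 48 hours, and the 3 untreated plates received none. DAC replaces deoxycytidine in newly made DNA, where it binds and depletes the DNA methyltransferases. All plates came from this one culture and carried the same tumour genotype, so the p-values reflect the scatter of plates alone, and the small number of arrays limits the precision.

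Interferons bind surface receptors and activate JAK kinases, which switch on transcription factors. These then bind the interferon-stimulated response element in the promoters of many genes. The proteins made from these genes block viruses at entry, in replication and in release. Fibroblasts carry receptors for type I interferon and respond to it.

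Each array gave 16205 to 17180 detected probes (detection p under 0.01), with 16205 to 16528 on the DAC arrays and 16254 to 17180 on the untreated arrays. Arrays of one group correlated at 0.993 to 0.996 across probes and arrays of different groups at 0.974 to 0.980. Of 12 fibroblast markers, 11 were detected on all 6 arrays, among them Col1a1, Dcn, Vim and Acta2, and of these 11, 1 rose with DAC and 2 fell. Of all 12074 genes tested, 14.6% rose and 14.7% fell, and the fibroblast counts lay near these shares. The array held 19 of 20 leukocyte markers. Ptprc, Emr1 and Itgam were among 10 without detection on any array. Of the 8 tested, 6 rose with DAC and none fell, beside the same 14.6% and 14.7% of all genes. Those that rose were Cd53, Csf1r, Laptm5, Lyz2, Coro1a and Cd68, whereas Cd14 and Cd3e did not pass the test. For Cd53 and Csf1r, 3 of 3 DAC arrays but 0 of 3 untreated arrays gave detection. Cd53 and Csf1r thus entered the test only through their DAC arrays. Their rises are therefore bounds, at least 2.00-fold for Cd53 and 1.33-fold for Csf1r. Of the 6 leukocyte markers detected on all arrays, Laptm5, Lyz2, Coro1a and Cd68 rose. Laptm5 was detected in both groups and rose 2.29-fold. The summed linear intensity of the leukocyte list, offset included, was 1049 to 1093 on the DAC arrays and 775 to 837 on the untreated arrays. Epcam and Cdh1 of the carcinoma cell and Pecam1, Cdh5 and Kdr of the endothelium were detected on no array. Of 5 epithelial markers tested, Krt7 rose 1.72-fold with DAC, Krt19 fell 2.30-fold and 3 did not pass the test, Krt8 and Krt18 among them, and the 1 endothelial marker tested, Esam, fell 1.59-fold (limma, adjusted p = 5.51e-05, 9.80e-06 and 0.000684 for Krt7, Krt19 and Esam). The part of all these markers in the results was not tested. In such bulk RNA, a change in the number of cells of a type and a change in RNA per cell cannot be told apart.

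The promoter sequences of several members are shown here because interferon-stimulated genes are read through a short motif that can be seen in them. Windows of 300 bases, 250 before and 50 from the annotated gene start on, came from RefSeq (GRCm38.p6) and were available for 22 of the 27 members that could be tested. The letters searched were GAAA, any 2 bases and GAAA again, the core of the interferon-stimulated response element, and TTCNNNGAA, the core of the gamma-activated site, each on both strands. Capitals mark the cores, and a core on the other strand reads TTTC, any 2 bases and TTTC. In Apol9b (chr15:77728822-77729071, plus strand) 2 cores overlapped, and the later one ended 22 bases before the annotated start. The lines below give, 5′ to 3′, the 250 bases before the start of Apol9b and 80 bases around the core for Trim30a (chr7:104465190-104465269), Rsad2 (chr12:26456533-26456612), Bst2 (chr8:71537557-71537636), Trim21 (chr7:102565454-102565533), Ifitm3 (chr7:141010716-141010795) and Ifitm2 (chr7:140955968-140956047), all on the minus strand. The last bases of the Trim30a, Trim21 and Ifitm3 lines lie past the annotated start. In Trim21 and Ifitm3 these bases include the cores, whereas the cores in the other lines lie before the start.
Apol9b: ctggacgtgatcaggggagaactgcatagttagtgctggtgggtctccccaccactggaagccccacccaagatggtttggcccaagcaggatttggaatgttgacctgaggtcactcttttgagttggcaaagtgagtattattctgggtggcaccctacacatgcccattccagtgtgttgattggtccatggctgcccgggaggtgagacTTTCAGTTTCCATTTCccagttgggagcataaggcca
Trim30a: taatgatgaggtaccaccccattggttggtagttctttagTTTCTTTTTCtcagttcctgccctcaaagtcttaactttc
Rsad2: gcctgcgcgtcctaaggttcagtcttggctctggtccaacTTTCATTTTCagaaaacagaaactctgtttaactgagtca
Bst2: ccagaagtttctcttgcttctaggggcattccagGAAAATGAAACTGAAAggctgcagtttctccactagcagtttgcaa
Trim21: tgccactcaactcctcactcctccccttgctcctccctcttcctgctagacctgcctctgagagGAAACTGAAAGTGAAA
Ifitm3: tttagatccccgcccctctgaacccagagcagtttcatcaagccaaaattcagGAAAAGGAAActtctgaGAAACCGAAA
Ifitm2: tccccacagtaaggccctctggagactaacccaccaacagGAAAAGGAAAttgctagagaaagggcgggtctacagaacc

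The window of Apol9a was identical to that of Apol9b at 278 of 278 bases compared, with its annotated start shifted by 22 bases, so its sequence is not repeated. The response element core was present in windows of 9 of the 22 tested members (40.9%) and of 6 of 12 members below the detection filter, against 3.99% of 27025 genes with a window. The gamma-activated core was found in 5 of the 22 (22.7%) and in 9.55% of all genes, and in Bst2 and Ifitm3 it overlapped the other core. Among the 9 tested members with the response element core were Apobec3 and Ifitm2, which did not rise with DAC. The windows of Parp12, Dtx3l, Samd9l and Ifi35, which rose, held no such core. A match is a description of letters and not evidence of binding. The windows differed widely in how many CG dinucleotides they held, and their methylation was not measured. Both Trim30a windows held 0 and those of Apol9a and Apol9b 2 or 3, whereas that of Parp12 held 46, against a median of 7 over all windows.

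Most of the members whose transcripts could be measured were higher with DAC. Of the 42 members on the array, 27 passed the detection filter (detection p under 0.01 on at least 3 arrays), 25 of these rose with DAC and none fell, at an adjusted p under 0.05 in limma over all 12074 genes. Across all genes tested, 14.6% were called higher and 14.7% lower, 29.2% in either direction. The other 15 members lay at background in both groups and were not tested. Among the 25 that rose, Slfn2 passed the filter only through its DAC arrays. Of the 25 members detected on all 6 arrays, 24 rose. Fitted rises of at least 2-fold were found for 16 members, against 1.95% of all genes, and for 15 members with Slfn2, which no untreated array detected, at its bound. Fitted rises of at least 4-fold were found for 5 members, Apol9a, Apol9b, Mx2, Rsad2 and Trim30a, against 0.431% of all genes. With an offset of 50, without background correction or without between-array normalization, that count was 2, Apol9a and Apol9b. Under each of these settings 13 members had fitted rises of at least 2-fold, and leaving out 1 array gave 14 to 16. The median log2 change of the 27 was 1.11, while that of all genes was −0.001. Since a gene could pass the filter through its DAC arrays alone, the median over all 42 members without that filter was also taken, and it was 0.62.

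**Figure D1:**
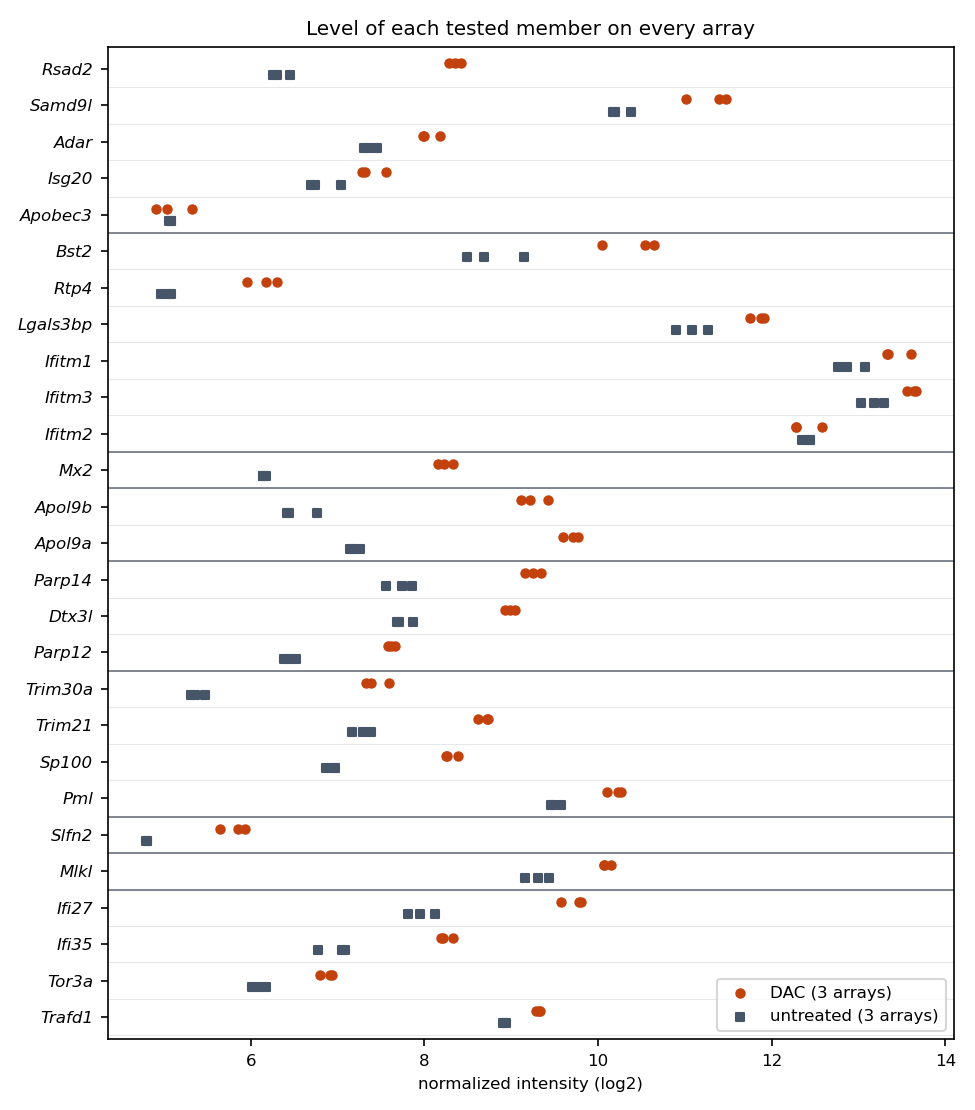
Normalized log2 intensity of the 27 tested members on each array, with DAC arrays as circles above untreated arrays as squares and lines between role groups. For 25 members all DAC arrays lie above all untreated arrays, and the points of Apobec3 and Ifitm2 overlap. The 25 include Slfn2, which passed the filter only through its DAC arrays.

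All 3 DAC arrays lay above all 3 untreated arrays for 25 of the 27 members, as they did for 21.4% of all genes tested. These 25 include Slfn2, which passed the filter only through its DAC arrays. The reverse order held for no member and for 21.3% of all genes. The plates of one group lay close together. The median SD between plates over the 27 members was 0.09 (log2) with DAC and 0.10 untreated, beside 0.12 and 0.11 for all genes. Bst2 was the most variable member, with an SD of 0.32 on the DAC plates and 0.33 on the untreated plates.

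The apolipoproteins L showed the largest changes among the members. Apol9a and Apol9b are rodent genes for cytosolic lipid-binding proteins that interferon induces. The deposited bead intensity of Apol9b was 512.9, 724.0 and 607.7 on the DAC arrays, against 115.7, 133.7 and 114.7 on the untreated arrays, each read from 43 to 47 beads. After normalization its log2 intensity was 9.12, 9.42 and 9.21 with DAC and 6.42, 6.76 and 6.44 untreated. The groups were far apart, and Apol9b rose 6.55-fold (adjusted p = 3.47e-10), which ranked 18 among the rises of 12074 genes. Apol9a stood at 9.71, 9.59 and 9.77 on the DAC arrays and at 7.14, 7.26 and 7.17 on the untreated arrays, a 5.66-fold rise (adjusted p = 1.08e-10). The promoter windows of these copies were identical over the bases compared, but their transcripts and probes were not compared. A probe of one may read the other, so which of them changed is uncertain.

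The Mx proteins are dynamin-like GTPases that trap incoming viral particles, and the array held a probe for each mouse gene. Mx2 rose 4.23-fold (adjusted p = 6.74e-10). Its arrays read 8.15, 8.22 and 8.33 with DAC and 6.14, 6.17 and 6.14 without it, with no overlap. Mx1 was detected on no array, at a mean of 4.41 with DAC and 4.35 untreated. Many inbred mouse strains are known to carry a defective Mx1 gene, but whether this culture does was not tested. The arrays read RNA alone, and whether working Mx2 protein was made was not tested either.

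Among enzymes that act on RNA and nucleotides, 4 of 5 tested members rose. Rsad2 encodes viperin, which turns CTP into a chain-terminating nucleotide that stops viral polymerases. It stood at 8.42, 8.28 and 8.35 on the DAC arrays, against 6.45, 6.30 and 6.25 on the untreated arrays, and rose 4.05-fold (adjusted p = 1.38e-09). Samd9l, a growth-restraining antiviral factor, had values of 11.47, 11.01 and 11.39 with DAC and 10.38, 10.20 and 10.17 untreated. That rise was 2.06-fold (adjusted p = 1.69e-05). Adar edits adenosine to inosine in double-stranded RNA and so hides the cell's own RNA from its sensors. It rose 1.60-fold, with DAC arrays at 7.98 to 8.18 and untreated arrays at 7.30 to 7.45. The exonuclease gene Isg20 rose 1.48-fold, at 7.29 to 7.55 with DAC and 6.70 to 7.04 untreated.

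Apobec3, a cytidine deaminase gene that restricts retroviruses, did not pass the test. Its arrays overlapped, at 4.91, 5.32 and 5.03 with DAC and 5.08, 5.05 and 5.08 untreated. The log2 change of 0.02 had a 95% interval from −0.23 to 0.26 (limma, adjusted p = 0.930), so a change by 2-fold lay outside it. The probe was dim and was detected on 2 of 3 DAC arrays and on 3 of 3 untreated arrays.

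Of the membrane and entry factors, 5 of 6 tested members rose. Bst2 encodes tetherin, which holds budding virions at the cell surface. Its values were 10.05, 10.54 and 10.64 on the DAC arrays and 8.68, 9.14 and 8.49 on the untreated arrays. Despite the scatter within groups, these did not overlap, and Bst2 rose 3.11-fold (adjusted p = 3.62e-06). Rtp4, a chaperone of surface receptors that interferon induces, had 5.95, 6.30 and 6.17 with DAC and 5.05, 4.96 and 5.08 untreated. It rose 2.16-fold (adjusted p = 2.53e-06), with an untreated level near background, and the log2 change of 1.11 became 0.65 with an offset of 50 and 1.71 with an offset of 0. Lgals3bp, a secreted galectin-binding glycoprotein, rose 1.70-fold, at 11.74 to 11.91 with DAC and 10.90 to 11.27 untreated.

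The IFITM proteins sit in endosomal and plasma membranes and hinder the fusion of incoming viruses. Of the members tested, Ifitm1 rose 1.44-fold (13.33 to 13.61 with DAC, 12.77 to 13.07 untreated) and Ifitm3 1.37-fold (13.56 to 13.66 with DAC, 13.03 to 13.30 untreated). Ifitm2 lay at 12.28, 12.58 and 12.27 on the DAC arrays and at 12.34, 12.45 and 12.44 on the untreated arrays. Those groups overlapped, and its log2 change was −0.04 with a 95% interval from −0.27 to 0.20 (limma, adjusted p = 0.840). The sign turned with 75th percentile scaling (0.15), where the median of all genes was also shifted to 0.07. The interval of Ifitm3, 0.23 to 0.67, lay above that of Ifitm2, but the difference between these genes was not tested. Windows of both genes hold the response element core, as shown above, past the annotated start in Ifitm3 and before it in Ifitm2. The protein-coding genes Ifitm2, Ifitm1 and Ifitm3 lie next to each other in this order.

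All 3 tested PARP proteins and partners rose. Parp14, a mono-ADP-ribosyltransferase, had 9.34, 9.16 and 9.25 on the DAC arrays, against 7.55, 7.74 and 7.86 on the untreated arrays, and rose 2.89-fold (adjusted p = 6.82e-08). Dtx3l is a ubiquitin ligase that works in a complex with Parp9. Its levels of 8.93, 8.98 and 9.05 with DAC and 7.87, 7.71 and 7.68 untreated gave a 2.35-fold rise (adjusted p = 3.39e-07). Parp12, which blocks the translation of viral RNA, read 7.66, 7.58 and 7.62 with DAC and 6.38, 6.52 and 6.45 untreated, 2.25-fold higher with DAC (adjusted p = 3.93e-07). None of these 3 genes had overlapping groups. Parp14, Dtx3l and Parp9 are neighbours on chromosome 16.

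**Figure D2:**
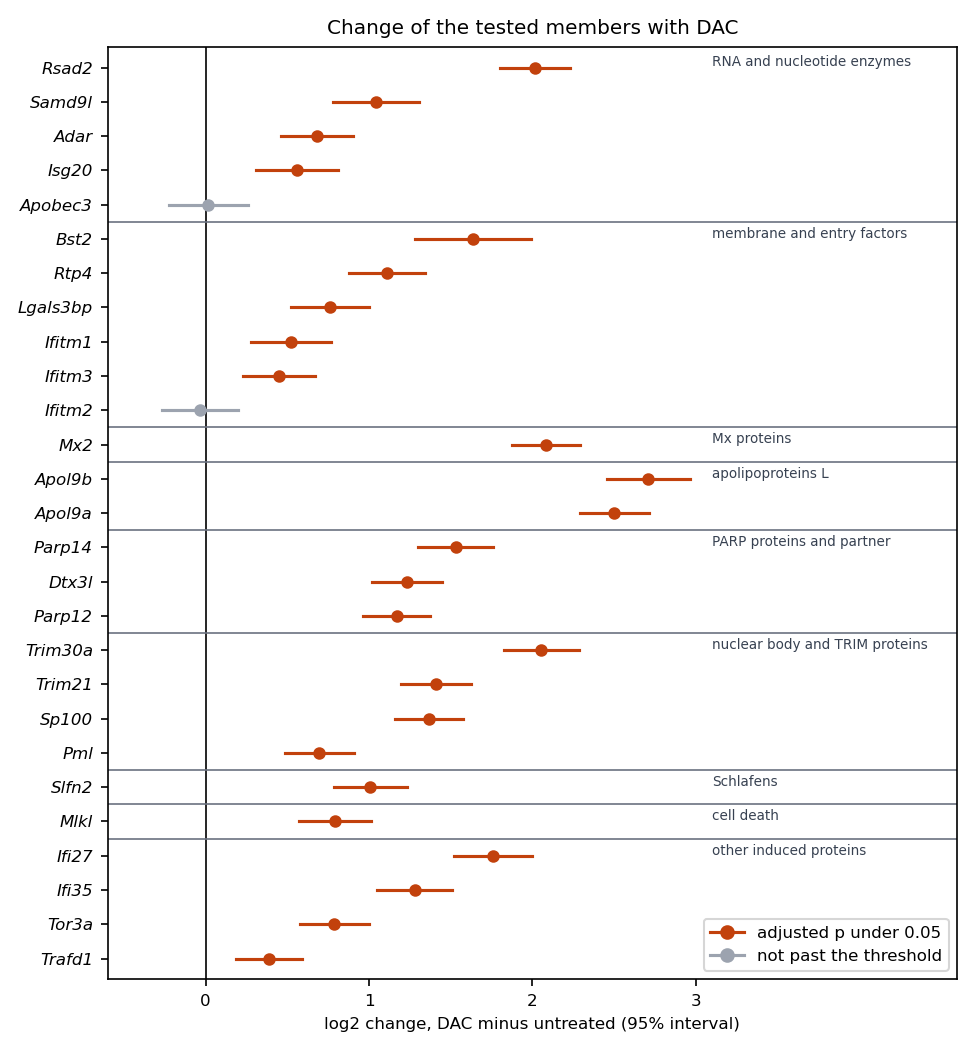
Log2 change of the 27 tested members, DAC minus untreated, with 95% intervals from limma, by role group. The changes run from −0.04 for Ifitm2 to 2.71 for Apol9b, and the intervals of Apobec3 and Ifitm2 include 0. The point of Slfn2 is its fitted change, whereas its rise is given in the text as a bound.

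All 4 tested genes of nuclear bodies and TRIM proteins rose. Trim30a encodes a RING-domain protein that restrains innate signalling in the mouse. It had 7.38, 7.32 and 7.60 on the DAC arrays and 5.47, 5.31 and 5.35 on the untreated arrays, a 4.16-fold rise (adjusted p = 2.13e-09). Its log2 change of 2.06 was 1.45 with an offset of 50. Trim21, the cytosolic antibody receptor that sends antibody-coated virus to the proteasome, stood at 8.72, 8.62 and 8.73 with DAC and 7.17, 7.39 and 7.29 untreated (2.66-fold, adjusted p = 8.05e-08). Sp100 and Pml build the nuclear bodies that silence viral genomes. Sp100 read 8.39, 8.25 and 8.26 on the DAC arrays and 6.87, 6.97 and 6.95 on the untreated arrays, a 2.58-fold rise (adjusted p = 8.05e-08). Pml rose 1.62-fold, at 10.10 to 10.26 with DAC and 9.45 to 9.57 untreated.

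The Schlafen genes lie side by side on chromosome 11 and regulate growth and, in part, RNA use. Of 7 members on the array only Slfn2, which keeps T cells quiescent, passed the filter. It read 5.85, 5.64 and 5.93 on the DAC arrays and 4.80, 4.79 and 4.81 on the untreated arrays. No untreated array detected it, so the rise is a bound of at least 1.83-fold (limma, adjusted p = 3.94e-06), and it passed the filter only through its DAC arrays. The fitted log2 change of 1.01 depended on the offset, with 0.54 at an offset of 50 and 1.76 at 0. Slfn1, Slfn3, Slfn4, Slfn5, Slfn8 and Slfn9 were detected on no array.

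Mlkl encodes the pore-forming executioner of necroptosis, a death programme that limits viral spread. Its arrays read 10.14, 10.07 and 10.07 with DAC and 9.31, 9.16 and 9.43 untreated, a 1.73-fold rise (adjusted p = 3.78e-05). The groups did not overlap.

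Of the remaining induced proteins, 4 of 4 tested members rose. Ifi35 encodes a leucine-zipper protein that pairs with Nmi. It stood at 8.19, 8.33 and 8.21 on the DAC arrays and 6.78, 7.05 and 7.08 on the untreated arrays, a 2.43-fold rise (adjusted p = 5.3e-07). Tor3a, an ATPase of the endoplasmic reticulum, rose 1.73-fold, at 6.79 to 6.94 with DAC and 6.02 to 6.17 untreated. Trafd1, a zinc-finger feedback inhibitor of innate signalling, rose 1.31-fold, at 9.28 to 9.33 with DAC and 8.90 to 8.94 untreated (adjusted p = 0.00601). Its call ended with the mean of its 3 probes (limma, adjusted p = 0.0682) and without between-array normalization (adjusted p = 0.0770), and over the alternatives the adjusted p began at 0.00174.

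The target listed as Ifi27 encodes a small hydrophobic membrane protein, and its gene is ambiguous in the name table. Its values were 9.58, 9.78 and 9.80 with DAC and 7.95, 8.13 and 7.81 untreated, which is 3.38-fold higher (adjusted p = 2.34e-08). Ifi27 is a current symbol and also an older name of Ifi27l2a. Another target, listed as D12Ertd647e, also names Ifi27, and its 2 detected probes had log2 changes of 0.04 and 0.09 (limma over all probes, adjusted p = 0.805 and 0.561). The file does not settle which of these genes each target reads.

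More than 1 probe was detected for 6 members. Of 36 member probes that passed the filter, 32 rose and none fell, against 13.1% of all 16883 probes called higher and 14.5% called lower. The 32 include the Slfn2 probe, which passed only through its DAC arrays. The 4 detected probes of Adar all rose, with log2 changes of 0.65, 0.68, 0.83 and 1.15. Adar makes a constitutive and an interferon-induced transcript, and the file does not say which part each probe reads. For Trim21 the brightest probe changed by 1.41 and another by 0.42, and with their mean in place of the brightest probe the change of the gene was 0.92. The probe at 0.42 was dim, with means of 5.55 with DAC and 5.13 untreated, and only 2 of 3 untreated arrays detected it. The probes of Sp100 changed by 1.37 and 1.11, those of Pml by 0.70 and 0.83, and those of Ifitm1 by 0.52 and 0.59. Of the 3 Trafd1 probes, those at 0.17 and 0.28 did not pass the threshold.

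**Figure D3:**
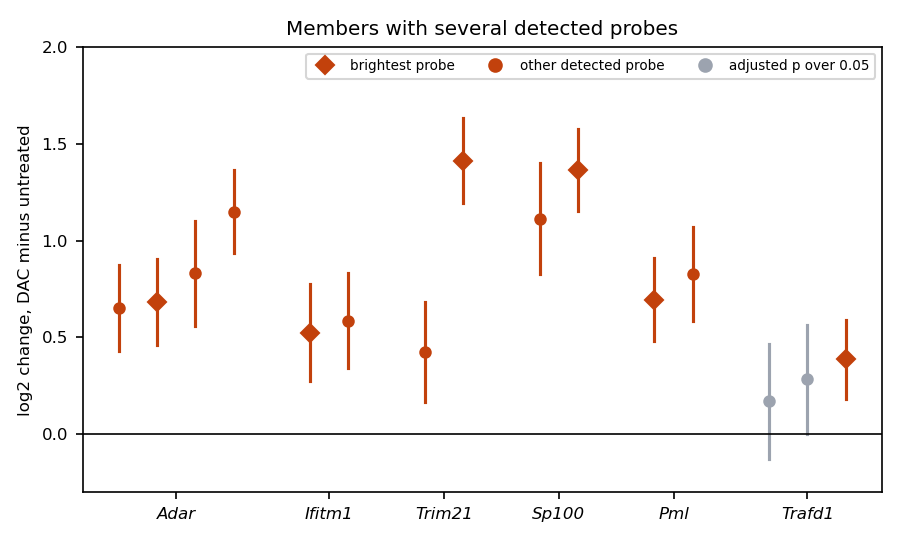
Log2 change, DAC minus untreated, with 95% intervals for each detected probe of the 6 members with more than 1, where diamonds mark the brightest probe. The 4 Adar probes lie between 0.65 and 1.15, and the Trim21 probes at 0.42 and 1.41 have intervals that do not meet. The Trim21 probe at 0.42 is dim.

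For 4 of the 5 names without a probe, the table held a target under an older name of the gene. These were outside the rule and are not in its counts. Cmpk2, a mitochondrial nucleotide kinase that neighbours Rsad2 on chromosome 12, was listed as Tyki. It read 6.95, 6.62 and 7.14 on the DAC arrays and 5.01, 4.90 and 4.54 on the untreated arrays, of which only 1 detected it. Its log2 change of 2.09 (limma, adjusted p = 5.68e-08) stood beside 2.02 for Rsad2. Shisa5, listed as Scotin, rose in all 3 of its probes, by log2 changes of 0.46, 0.53 and 0.96. The probes for Parp9 and Sp110 under older names were detected on no array. Further targets under older names of Apobec3, Rtp4 and Parp14 also lay at background throughout.

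The 15 members below the filter were detected on 0 of 6 arrays with all of their probes. Beside Mx1 and 6 Schlafens, they were Ifi203, Ifi204, Ifi205 and Ifi211 of the DNA-binding interferon-inducible family on chromosome 1, and Nmi, Ifi44, Phf11 and Epsti1. Their brightest probes averaged 4.24 to 4.48 on the DAC arrays and 4.21 to 4.49 on the untreated arrays, whereas the lowest detected signal on an array was 4.88 to 5.05. A transcript may still be present below that level. No member was detected on all arrays of one group while lying clearly at background (detection p over 0.05) on all arrays of the other.

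**Figure D4:**
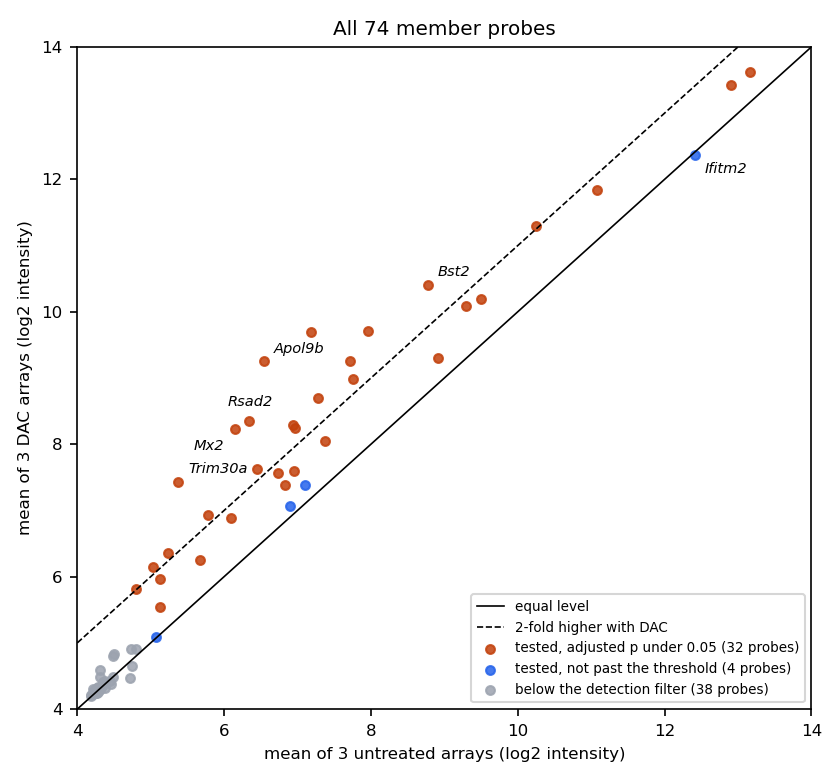
Mean log2 intensity of all 74 member probes on the DAC arrays (y axis) against the untreated arrays (x axis), with lines for equal level and a 2-fold rise. The 38 probes below the filter gather at the lower left, and 32 of the 36 others lie above the line of equal level and past the threshold.

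The rest of the pathway was read from a list of other interferon-stimulated genes and a list of interferons with their receptors. Of 32 other stimulated genes on the array, 24 were tested, 22 rose and none fell, beside 14.6% and 14.7% of all genes, with a median log2 change of 1.45. Transcription factor genes of the pathway were among those that rose, Stat2 by 2.07-fold, Irf9 by 1.90-fold and Irf7 by 4.72-fold. Among 24 interferon and receptor genes with a probe, 16 lay at background on every array, Ifnb1 and Ifng included. Of the 8 tested, 1 rose and none fell, a share near the 14.6% of all genes called higher. The 1 was Ifna6, an interferon alpha gene with near-identical relatives, at a mean of 5.81 on the DAC arrays and 5.51 on the untreated arrays (1.22-fold, limma, adjusted p = 0.0447). Of the chains of the type I receptor, Ifnar1 was detected on no array, at a mean of 4.26 with DAC and 4.22 untreated, and Ifnar2 had a log2 change of −0.16 (limma, adjusted p = 0.302).

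**Figure D5:**
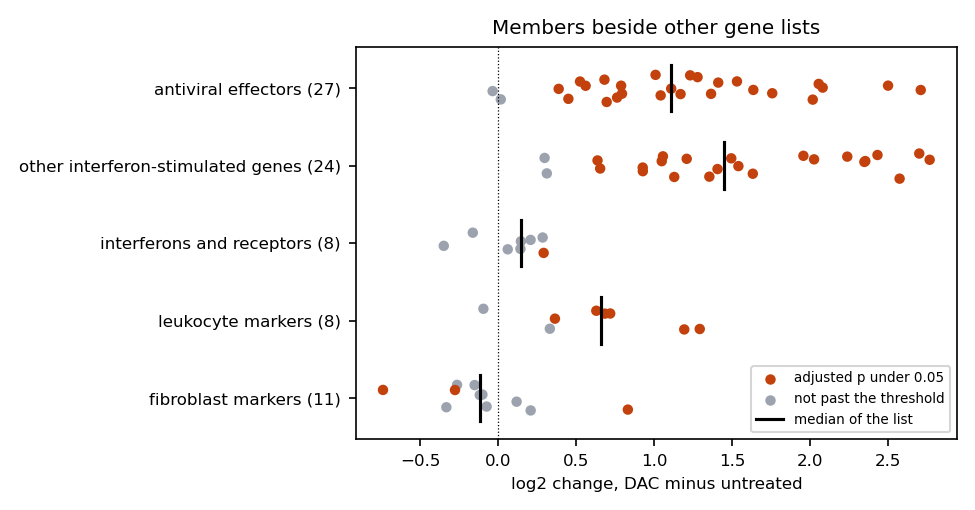
Log2 change, DAC minus untreated, of each tested gene in the member list and 4 other lists, where points are genes and bars are medians. The medians are 1.11 for the 27 members, 1.45 for 24 other interferon-stimulated genes, 0.14 for 8 interferons and receptors, 0.66 for 8 leukocyte markers (0.52 with 2 of them at their bound) and −0.12 for 11 fibroblast markers.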

How the data were processed

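Total RNA taken with Trizol was turned into biotin-labelled cRNA with an Ambion kit and hybridised to Illumina bead arrays, per the labels' protocols. For each probe and array the authors deposited, per the file headers, the mean intensity of its beads (linear), a detection p-value, the bead standard error and the bead number. From the values, the intensity was neither background-subtracted nor normalized. The sources used here name neither software nor probe build. A further deposited intensity table shared 0 probe identifiers with the first, so members could not be named in it. It served for counts of probes alone.

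Background was corrected by normexp with parameters from the detection p-values (limma 3.58.1, R 4.3.3), with 16 as offset, followed by quantile normalization of log2 values. The filter required detection (p under 0.01) on 3 or more arrays and passed 16883 probes. The brightest of these stood for its target name, so that 12074 genes were tested. Groups were compared by lmFit and eBayes with Benjamini-Hochberg adjustment over all genes, or over all probes that passed where single probes are given. A fold against a group with no detecting array is a bound. It sets the brighter mean against the mean, per array, of the lowest detected signal or the probe's own, whichever is higher. Summed list intensities add each gene's brightest probe on the linear scale.

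All members are named. Array values are given singly for members with at least 2-fold changes, for members that missed the threshold and for the leading member of each role, and otherwise as ranges. The members and lists were chosen with earlier results of these data known. Genes of the other lists were named after their values were seen. The labels do not say that equal replicate numbers share a batch, so the plates were compared without pairing. Deviations from the group means correlated at 0.32, 0.28 and −0.03 for plates of equal number. For plates of unequal number the correlations ran from −0.39 to 0.15. With so few plates these values cannot decide whether the plates were paired. On simulated intensities with 50 genes changed by each size among 13400 tested, the share called was 42% for a log2 change of 0.5, 94% for 1 and 100% for 2. In that run, 5 of 173 calls fell on unchanged genes, and with no change in any gene 0 of 13359 were called. The changed genes were drawn from brighter targets, and the simulated scatter was independent between arrays. The shares therefore do not cover dim members, and effects shared by plates were not simulated.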

Additional observations from a re-analysis of the deposited data

How the results depend on the processing

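Under 18 alternatives, 24 or 25 members were called higher and 0 lower. Of 481 single-member values, 474 kept their direction and their side of the threshold. Trafd1 lost its call under 2 settings, given above. The sign of Apobec3 turned without between-array normalization (−0.080) and without DAC replicate 2 (−0.10), and that of Ifitm2 with 75th percentile scaling (0.15), without DAC replicate 1 (0.016) and without DAC replicate 3 (0.01). Leaving out 1 array gave −0.10 to 0.11 for Apobec3 and −0.13 to 0.016 for Ifitm2. Neither gene was called under any of them, and the cause of these changes was not tested. The median change of the members (1.11) was 0.91 without background correction, 0.93 with an offset of 50, 1.34 with an offset of 0, 0.99 without between-array normalization and 0.62 without the filter on dim probes, which brings in 15 members at background. Leaving out 1 array gave medians of 1.07 to 1.19. Slfn2 was not tested without any 1 DAC array. Over all genes, 1007 were called higher and 2870 lower without between-array normalization, against 1758 and 1772, so that 26.0% of the calls were higher in place of 49.8%, and the median of all genes moved to −0.11. With 75th percentile scaling 62.6% of the calls were higher. Leaving out 1 array gave 1266 to 1555 genes higher and 1352 to 1682 lower. With the replicate number as a block, 25 members were called higher and 0 lower, and no member's call changed. The processed table gave 2173 probes higher and 2406 lower, against 2220 and 2454. Dim probes limit Slfn2, Rtp4, Apobec3, the Trim21 probe with the smaller change and the 15 members at background.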
